A study of Mus musculus with 18 samples.

Results

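The response of wild-type macrophages to low oxygen was measured here as the difference between cells labelled oxygen 1 and cells labelled oxygen 20. Each group held 3 samples, so that the comparison used 6 of the 18 samples of the study. For the comparison over the whole array no gene was selected, and every non-control probe entered. After a filter on dim probes 20636 genes could be tested, of which 13952 had a symbol. The gene lists used below were chosen with earlier results of these data known. All 6 samples were wild-type macrophages with control feeding, grown for 7 days with macrophage colony stimulating factor (M-CSF) from femoral marrow of male C57BL/6J mice aged 8 weeks. The other 12 samples were wild-type cells labelled starved at oxygen 20, and the same 3 conditions in PHD3-/- (knockout) cells. The labels give oxygen without a unit, and they do not say how long the cells were exposed. By its title the series is about how macrophages survive stress, and this comparison asks what low oxygen alone did to cells with an intact PHD3 gene.

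Cells sense oxygen through prolyl hydroxylases (PHD enzymes, encoded by the Egln genes) that use oxygen to mark the alpha chains of the hypoxia-inducible factors (HIF). Marked chains are recognised by the von Hippel-Lindau protein, encoded by Vhl, and destroyed. When oxygen is scarce the alpha chains persist, pair with ARNT and bind hypoxia response elements, whose core is ACGTG. HIF is known to turn on glycolysis, angiogenic factors and its own hydroxylases, and macrophages are known to meet low oxygen in wounds, tumours and inflamed tissue.

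All 11 macrophage markers measured were well above background in each of the 6 samples, among them Adgre1 (F4/80), which averaged 6.85 ± 0.09 at oxygen 1 and 6.91 ± 0.12 at oxygen 20 (SD, n = 3 each). Levels are log2 signals set against each array's 75th percentile, so that 0 is that percentile. At the threshold given below, 3 of the 11 macrophage markers rose (27.3%) and 4 fell (36.4%) at oxygen 1. The shares over all genes were 20.7% and 18.2%. Log2 fold changes of these markers spanned -1.81 to 1.06. Between 57.7% and 61.6% of the 43020 spots per array were well above background, and no spot was saturated. Only 1 of the 5 slides held samples of both groups, so a within-slide difference rests on a single pair of samples. The summed linear level of lymphocyte markers was 7.23 to 7.7 at oxygen 1 and 10.1 to 11 at oxygen 20, in units of the 75th percentile, and that of macrophage markers 668 to 701 at oxygen 1 and 619 to 688 at oxygen 20. In these bulk RNA samples, fewer cells of a type and less RNA per cell cannot be told apart.

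Low oxygen changed a large part of what these macrophages expressed. At a Benjamini-Hochberg adjusted p under 0.05 in limma's moderated test, 4277 genes (20.7% of those tested) rose and 3762 (18.2%) fell, together 39.0%. The shifts upward reached further. Of the genes called, 459 rose and 179 fell at least 4-fold, and 50 rose and 2 fell at least 16-fold. The median log2 fold change over all genes tested was 0.034.

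The largest rises joined a mitochondrial protein, an arginine-degrading enzyme and regulators of glycogen with the oxygen sensor PHD3 itself. Mgarp, which encodes a mitochondrial protein, stood at 3.21, 3.21 and 3.38 at oxygen 1, against -4.24, -5.69 and -5.69 at oxygen 20. Arg1, which encodes the arginase that splits arginine into ornithine and urea, stood at 1.41, 1.46 and 1.63 at oxygen 1, against -6.11, -8.02 and -6.80 at oxygen 20, where 1 of 3 samples was well above background. Neither gene's groups overlapped, as held for 50.2% of all genes tested, and the gap between them was many times the spread within either.

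Other strong rises came from genes of varied function. Ankrd37, a small ankyrin-repeat gene, stood at 3.42, 3.58 and 3.36 at oxygen 1, against -2.12, -1.99 and -2.19 at oxygen 20, a 47.0-fold rise (log2 5.56 ± 0.12 SE, adjusted p = 1.35e-13). F13a1, which encodes the catalytic subunit of clotting factor XIII, stood at 0.39, 0.65 and 1.11 at oxygen 1, against -5.04, -5.16 and -4.82 at oxygen 20, a 52.8-fold rise (log2 5.72 ± 0.35 SE, adjusted p = 1.72e-08). Both were well above background in every sample, so these folds are measured on both sides. Rcor2, which encodes a corepressor partner of a histone demethylase, rose 41.0-fold, and the mitochondrial adenylate kinase gene Ak4 rose 74.5-fold.

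Several of the strongest responders were not well above background at oxygen 20. The 25 largest rises spanned log2 fold changes of 4.43 to 8.48, and for 9 of them no oxygen 20 sample was well above background. For these the fold is a lower bound, the oxygen 1 mean over the detection floor of the oxygen 20 arrays. Ppp1r3g was at least 51.7-fold higher at oxygen 1 and Ppp1r3c at least 13.1-fold, both subunits that bring protein phosphatase 1 to glycogen. Dapk2, a calmodulin-dependent kinase gene, was at least 20.0-fold higher, and Colgalt2, which encodes an enzyme that adds galactose to collagen, at least 18.3-fold. Folds of dim genes depended on the processing. The normexp alternative added an offset of 50, which by itself lowers the folds of dim genes, and was followed by quantile normalization. The part of each step was not tested. After these steps 44 of the 228 called genes named or plotted had a fold smaller by over 1.5 times. The fitted log2 fold change was then 6.38 for Mgarp, 5.46 for Arg1, 3.51 for Ppp1r3g and 1.64 for Ppp1r3c, so that the bounds hold for the values as processed by the scanner software.

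The largest falls were of varied function. Cd209f, a C-type lectin gene of the DC-SIGN family, stood at -0.16, -1.63 and 0.67 at oxygen 1, against 4.11, 3.90 and 4.52 at oxygen 20, a 23.4-fold fall (log2 -4.55 ± 0.46 SE, adjusted p = 2.19e-06), or log2 -3.92 without replicate 2 at oxygen 1. Cxcl5, a neutrophil-attracting chemokine gene, was well above background in no sample at oxygen 1 and in all 3 at oxygen 20, and was at least 11.4-fold lower at oxygen 1. Rab38, a small GTPase gene of lysosome-related organelles, fell 8.94-fold, and the thymidine kinase gene Tk1 6.86-fold. The 25 largest falls spanned log2 fold changes of -4.55 to -2.59, and for 11 of them no oxygen 1 sample was well above background. They included Ngp and Ltf, genes of neutrophil granules, and the B-lineage genes Pou2af1 and Vpreb3, and the part of other cell types in these falls was not tested.

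**Figure D1:**
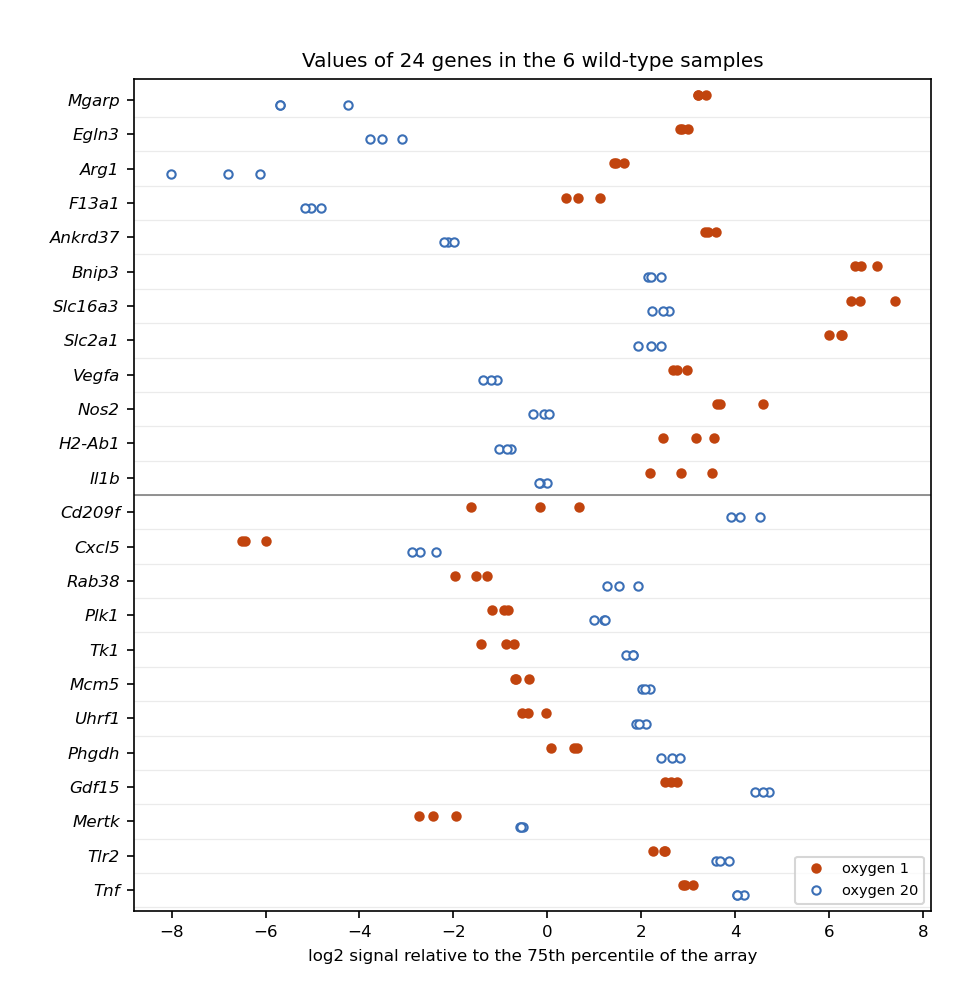
Log2 signal set against each array's 75th percentile (horizontal axis) for 12 genes that rose (above the line) and 12 that fell, with 1 point per sample, filled for oxygen 1 and open for oxygen 20. The 2 groups of 3 samples do not overlap for any gene shown, and Mgarp and Arg1 lie farthest apart.

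Since HIF binds a short core, the promoters of the genes tested were searched for ACGTG on either strand (ACGTG or CACGT). The core also lies inside CACGTG, the E-box read by MYC and by clock factors, so a match does not tell these apart. Promoter sequences were those of RefSeq on GRCm38.p6, windows of 300 bases that lie mostly before each gene's start, and 11179 of the 13952 genes with a symbol had a window. Some strong responders are shown 5′ to 3′ on the strand of the gene, with the core in capitals, beside Tk1, which fell and has no match. The windows shown are examples and do not stand for their groups. The core was present for 34 of 83 genes that rose at least 8-fold and for 19 of 90 that fell at least 4-fold.

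Egln3 (chr12:54203825-54204124, minus strand): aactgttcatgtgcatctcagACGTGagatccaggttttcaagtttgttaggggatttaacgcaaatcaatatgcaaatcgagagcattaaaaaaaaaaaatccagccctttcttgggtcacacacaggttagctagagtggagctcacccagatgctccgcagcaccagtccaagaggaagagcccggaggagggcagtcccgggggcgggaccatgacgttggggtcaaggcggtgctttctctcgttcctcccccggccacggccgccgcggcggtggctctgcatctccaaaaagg
Mgarp (chr3:51396498-51396797, minus strand): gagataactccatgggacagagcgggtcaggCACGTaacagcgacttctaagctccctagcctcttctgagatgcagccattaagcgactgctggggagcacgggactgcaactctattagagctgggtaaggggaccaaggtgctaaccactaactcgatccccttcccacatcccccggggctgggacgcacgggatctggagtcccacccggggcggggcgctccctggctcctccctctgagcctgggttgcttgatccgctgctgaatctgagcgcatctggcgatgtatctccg
Ankrd37 (chr8:45999801-46000100, minus strand): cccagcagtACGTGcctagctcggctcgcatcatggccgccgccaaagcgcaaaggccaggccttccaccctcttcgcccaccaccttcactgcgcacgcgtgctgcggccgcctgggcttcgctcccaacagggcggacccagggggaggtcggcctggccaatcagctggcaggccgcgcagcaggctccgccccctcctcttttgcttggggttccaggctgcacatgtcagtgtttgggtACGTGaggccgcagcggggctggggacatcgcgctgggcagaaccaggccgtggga
Ppp1r3c (chr19:36736555-36736854, minus strand): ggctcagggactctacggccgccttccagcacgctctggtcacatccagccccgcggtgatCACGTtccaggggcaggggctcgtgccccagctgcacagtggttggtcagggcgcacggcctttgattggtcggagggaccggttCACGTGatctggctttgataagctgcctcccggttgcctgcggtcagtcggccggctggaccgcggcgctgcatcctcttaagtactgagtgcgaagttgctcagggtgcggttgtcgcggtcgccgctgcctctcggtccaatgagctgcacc
Bnip3 (chr7:138909457-138909756, minus strand): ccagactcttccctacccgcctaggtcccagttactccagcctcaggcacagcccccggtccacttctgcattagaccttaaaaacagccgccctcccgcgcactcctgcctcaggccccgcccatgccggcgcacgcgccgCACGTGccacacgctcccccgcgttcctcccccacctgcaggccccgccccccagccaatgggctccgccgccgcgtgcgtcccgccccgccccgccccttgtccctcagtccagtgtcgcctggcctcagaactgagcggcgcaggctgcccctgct
P4ha2 (chr11:54100674-54100973, plus strand): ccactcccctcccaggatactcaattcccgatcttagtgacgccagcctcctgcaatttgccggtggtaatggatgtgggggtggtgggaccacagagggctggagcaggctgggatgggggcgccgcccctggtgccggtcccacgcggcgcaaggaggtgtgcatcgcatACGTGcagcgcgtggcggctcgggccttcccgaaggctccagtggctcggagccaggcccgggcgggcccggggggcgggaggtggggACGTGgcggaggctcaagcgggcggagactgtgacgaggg
Tk1 (chr11:117825965-117826264, minus strand): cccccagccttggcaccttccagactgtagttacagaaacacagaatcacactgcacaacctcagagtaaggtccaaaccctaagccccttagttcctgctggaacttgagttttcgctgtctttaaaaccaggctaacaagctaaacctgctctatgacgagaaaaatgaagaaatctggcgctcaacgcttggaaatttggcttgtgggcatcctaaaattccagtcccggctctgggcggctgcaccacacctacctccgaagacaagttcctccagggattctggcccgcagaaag

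In Egln3 the match began at -229 and in Mgarp at -219, counted from the start. Ankrd37 held matches at -241 and -6, Ppp1r3c at -189 and -104, and Bnip3 at -108, while P4ha2 had one at -78 and another at 11, past the start. The Bnip3 window and the Ppp1r3c window each hold a complete CACGTG.

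Across the genes tested the core was more frequent among the strongest rises. It was present for 34 of 83 genes (41.0%) that rose at least 8-fold, 29.4% of 160 genes that rose 4-fold to 8-fold, 28.0% of 564 that rose 2-fold to 4-fold and 32.4% of 1547 that rose less. Among 6451 genes that did not pass the threshold it was present for 26.8%, and among 90 genes that fell at least 4-fold for 21.1%. Over all genes tested the share was 27.9%. Among genes with a single window it was 39.2% for rises of at least 8-fold and 24.7% for all genes. These shares are a description without a test, and no match says only that the letters are not in this window. When GCGTG was counted as well, the shares were 67.5% for rises of at least 8-fold, 55.0% for rises of 4-fold to 8-fold, 67.7% for rises of less than 2-fold, 67.3% for falls of less than 2-fold and 63.3% for all genes, so that the strongest rises no longer stood apart.

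The oxygen sensing machinery changed at several of its parts. Of 11 genes of oxygen sensors and HIF subunits tested, 6 rose (54.5%) and 1 fell (9.09%), with a median log2 fold change of 0.50. The shares over all genes were 20.7% and 18.2%. Egln3, which encodes PHD3, stood at 3.00, 2.87 and 2.83 at oxygen 1, against -3.1, -3.51 and -3.77 at oxygen 20, an 82.1-fold rise (log2 6.36 ± 0.16 SE, adjusted p = 8.33e-13). Egln1, the gene of PHD2, which does most of this sensing in many cells, rose 5.24-fold, whereas Egln2, which encodes PHD1, fell 1.51-fold. Vhl stood at 2.63, 2.83 and 2.67 at oxygen 1, against 0.99, 0.96 and 1.01 at oxygen 20, a 3.31-fold rise (adjusted p = 1.21e-08). Transcripts of 2 HIF subunits did not pass the threshold. Hif1a differed by -0.31 on the log2 scale with overlapping groups (adjusted p = 0.341), Arnt by 0.40 (adjusted p = 0.157), and Hif1an, which encodes the asparagine hydroxylase FIH, by -0.11 (adjusted p = 0.559). Hif3a, which encodes a HIF subunit known mainly as an inhibitor, rose 1.61-fold, a call that was lost when the median over its probes stood for the gene.

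Nearly every step of glycolysis rose. Of 19 glycolytic enzyme genes tested, 17 rose and none fell, with a median log2 fold change of 1.64, against 20.7% rises among all genes. Glucose entry came first: Slc2a1, which encodes the transporter GLUT1, stood at 6.28, 6.26 and 6.00 at oxygen 1, against 2.42, 2.20 and 1.94 at oxygen 20, a 15.9-fold rise. The hexokinase genes Hk1 and Hk2, which trap glucose in the cell, rose 5.27-fold and 4.19-fold, while Hk3 differed by -0.20 on the log2 scale (adjusted p = 0.304).

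Isoforms of single steps responded unequally. Among the phosphofructokinase genes, Pfkl rose 8.58-fold, Pfkp 4.14-fold and Pfkm, the muscle form, 1.38-fold. Aldoc, the aldolase first known from brain, stood at 3.55, 3.63 and 3.35 at oxygen 1, against 0.29, -0.07 and -0.14 at oxygen 20, an 11.2-fold rise, whereas Aldoa, the form of most tissues, rose 2.05-fold. Tpi1, Pgk1, Pgam1, Eno1 and Pkm, which carry the later steps, rose between 2.77-fold and 4.95-fold, with 1 of the 3 oxygen 20 values of Pgk1 missing because its spot was rejected. Eno2 differed by 0.25 on the log2 scale (adjusted p = 0.256). Gapdh, commonly taken as a constant control gene, rose 1.54-fold on its brightest probe (adjusted p = 0.0456), a call lost under 10 of 17 alternatives, among them the fits without replicate 1 or 2 at oxygen 1 or without replicate 2 or 3 at oxygen 20. Its 7 probes gave log2 fold changes of 0.63 to 1.65.

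Of 13 genes of lactate and acid handling, 3 rose and 1 fell, a share of rises near the 20.7% over all genes. Ldha, which turns pyruvate into lactate, rose 2.33-fold on its brightest probe, and its 3 probes gave log2 fold changes of 1.22 to 2.58. Slc16a3, which encodes the lactate exporter MCT4, stood at 6.65, 7.40 and 6.46 at oxygen 1, against 2.58, 2.47 and 2.23 at oxygen 20, a 21.2-fold rise, and Bsg, its chaperone basigin, rose 4.93-fold. The carbonic anhydrase gene Car9, a common marker of hypoxia in tumours, fell instead. It stood at 0.40, -0.19 and 0.32 at oxygen 1, against 1.31, 1.08 and 1.23 at oxygen 20 (log2 -1.03 ± 0.13 SE, adjusted p = 2.2e-05). Car12 was near background in both groups.

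Regulators of pyruvate entry into the mitochondrion changed in opposite directions. Pdk1, whose kinase switches off pyruvate dehydrogenase, rose 8.90-fold, and Pdp2, whose phosphatase switches it back on, fell 1.93-fold. Pfkfb3, the kinase whose product activates phosphofructokinase, rose 2.87-fold, and Pfkfb4 differed by -0.30 on the log2 scale (adjusted p = 0.096). Of 8 pentose phosphate pathway genes none rose and 3 fell (37.5%, against 18.2% over all genes), among them G6pdx, the entry enzyme, by 1.41-fold.

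Of the glycogen genes, those of synthesis rose most. Of 22 tested, 11 rose (50%) and 4 fell (18.2%), against 20.7% and 18.2% over all genes. Gys1, which encodes glycogen synthase, stood at 3.33, 3.44 and 3.40 at oxygen 1, against -0.31, -0.30 and -0.38 at oxygen 20, a 13.2-fold rise (log2 3.72 ± 0.11 SE, adjusted p = 4.39e-12). The samples of either group lay close together, far from those of the other. Pgm1, which makes glucose-1-phosphate, rose 7.40-fold and the branching enzyme gene Gbe1 3.48-fold. Epm2a, which encodes laforin, the phosphatase that removes phosphate from glycogen, was at least 3.75-fold higher at oxygen 1. On the side of breakdown, the phosphorylase gene Pygl rose 1.83-fold, whereas Pygb, another phosphorylase gene, fell 1.93-fold, and the phosphorylase kinase subunit genes Phka2 and Phkb fell 2.18-fold and 1.41-fold.

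**Figure D2:**
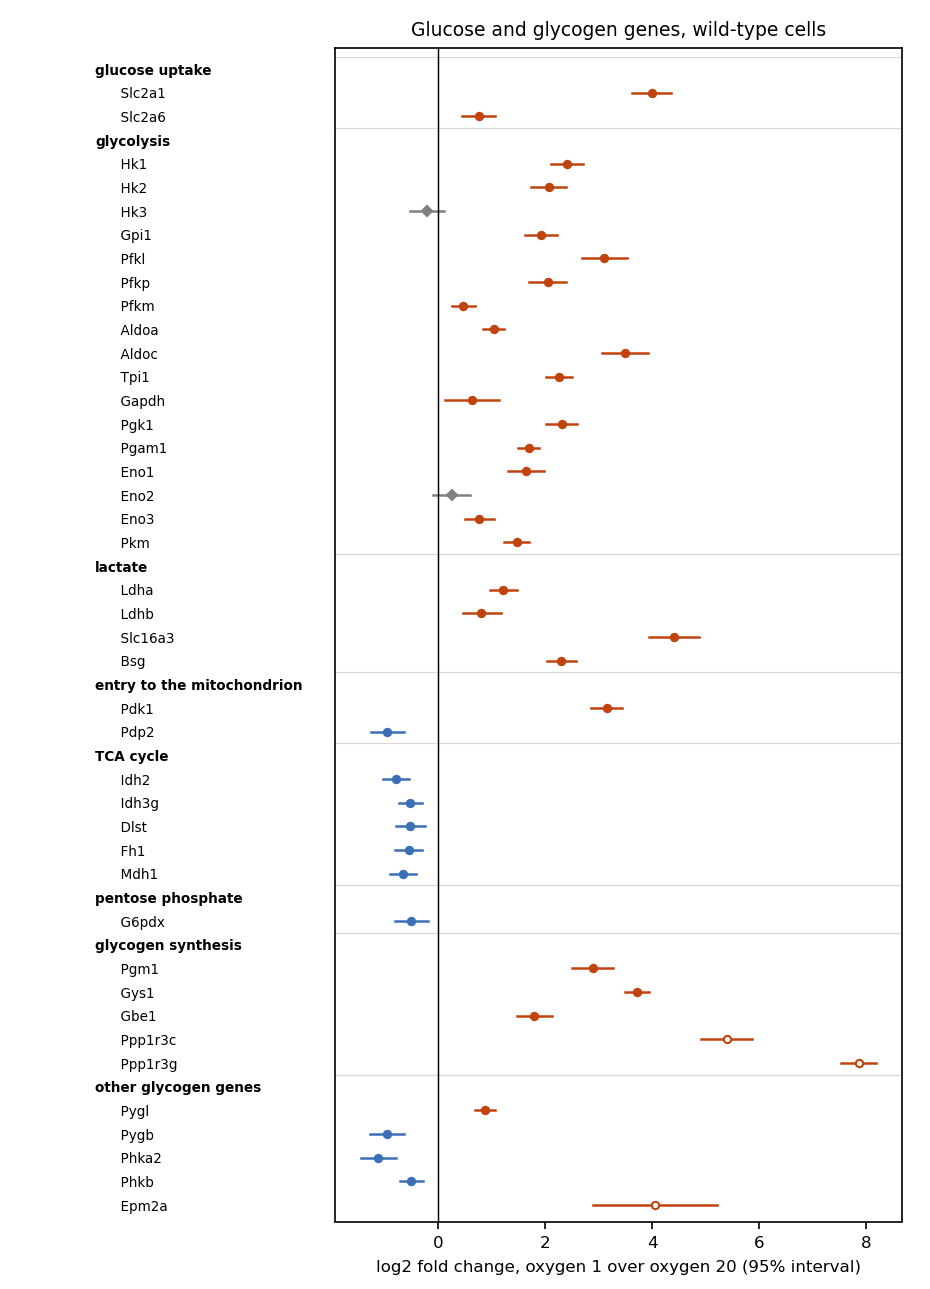
Log2 fold change of oxygen 1 over oxygen 20 (horizontal axis, lines are 95% intervals of the fit) for genes of glucose and glycogen use in wild-type cells, ordered by step. Open circles mark genes with no sample well above background at oxygen 20, whose fitted value is not a bound, and grey diamonds genes that did not pass the threshold. Most uptake, glycolytic and lactate genes lie right of 0, and the tricarboxylic acid cycle and pentose phosphate genes shown lie left of it.

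Mitochondrial genes divided by role. Bnip3 encodes a receptor that marks mitochondria for removal. It stood at 6.67, 6.54 and 7.01 at oxygen 1, against 2.15, 2.20 and 2.42 at oxygen 20, a 22.4-fold rise. All 3 of its probes gave log2 fold changes between 4.48 and 4.85. Its relative Bnip3l rose 5.65-fold, and Pink1, the kinase that flags damaged mitochondria, 2.66-fold. Of 12 mitophagy genes tested, 5 rose (41.7%), 6 did not pass the threshold, and 1 (8.33%), the inner membrane prohibitin gene Phb2, fell. The shares over all genes were 20.7% and 18.2%.

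Several genes that adjust the respiratory chain also rose. Fam162a, which encodes a mitochondrial protein known as a HIF target, stood at 6.77, 7.00 and 6.77 at oxygen 1, against 2.43, 2.47 and 2.47 at oxygen 20, a 21.0-fold rise (log2 4.39 ± 0.09 SE, adjusted p = 7.49e-14). Higd1a, which encodes a respiratory chain assembly factor, rose 3.49-fold, Ndufa4l2, known to lower respiratory chain activity, 3.04-fold, and Cox4i2, an alternative cytochrome oxidase subunit, 1.83-fold with Lonp1, the protease known to degrade the usual subunit, at 1.84-fold. Of 17 genes of mitochondrial remodelling tested, 8 rose (47.1%) and 4 fell (23.5%), with a median log2 fold change of 0.24. The shares over all genes were 20.7% and 18.2%.

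Genes of substrate oxidation fell more often than they rose. Of 23 genes of the tricarboxylic acid cycle, 9 fell (39.1%) and 1 rose (4.35%). Of 21 genes of fatty acid oxidation, 8 fell (38.1%) and 3 rose (14.3%). Over all genes 18.2% fell and 20.7% rose. Idh2 fell 1.73-fold, Mdh1 1.58-fold and Fh1, which encodes fumarase, 1.47-fold. The gene that rose in the cycle list was Acod1, which encodes the enzyme that diverts cis-aconitate to itaconate, at 1.89-fold. Decr1 and Acadl, enzymes of fatty acid oxidation, fell 2.22-fold and 1.65-fold, while Cpt1a, the gate of fatty acid entry, differed by -0.21 on the log2 scale (adjusted p = 0.0705). Of 74 mitochondrial ribosome genes, 37 fell (50%) and 2 rose (2.7%), with a median log2 fold change of -0.33. Ppargc1b, a coactivator of mitochondrial biogenesis, fell 2.09-fold.

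Enzymes that need oxygen as a substrate formed another group. Of 22 histone lysine demethylase genes tested, 11 rose (50%) and 1 fell (4.55%), with a median log2 fold change of 0.33. Kdm3a, which removes methyl groups from lysine 9 of histone H3, stood at 3.66, 3.80 and 3.78 at oxygen 1, against 1.00, 1.15 and 1.19 at oxygen 20, a 6.21-fold rise. Kdm4b rose 4.61-fold, Kdm5b 4.24-fold and Kdm6b 2.70-fold, while Kdm2b fell 1.72-fold. Collagen hydroxylases also consume oxygen. Of 17 genes of collagen hydroxylases and lysyl oxidases, 7 rose (41.2%) and 3 fell (17.6%), against 20.7% and 18.2% over all genes. P4ha2, a subunit of collagen prolyl hydroxylase, stood at 4.50, 4.65 and 4.35 at oxygen 1, against 0.69, 0.60 and 0.45 at oxygen 20, a 15.1-fold rise. P4ha1 rose 5.97-fold, and the lysyl hydroxylase gene Plod2 40.9-fold. The lysyl oxidase relative Loxl3 fell 2.70-fold, and Lox itself differed by 0.10 on the log2 scale (adjusted p = 0.711).

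Secreted factors that act on blood vessels were largely higher. Of 24 angiogenic factor genes tested, 14 rose (58.3%) and 2 fell (8.33%), with a median log2 fold change of 0.81. The shares over all genes were 20.7% and 18.2%. Vegfa, the main growth factor of blood vessels, stood at 2.77, 2.97 and 2.68 at oxygen 1, against -1.07, -1.19 and -1.37 at oxygen 20, a 16.2-fold rise, whereas its relative Vegfb fell 1.65-fold. Adm, which encodes the vasodilator adrenomedullin, stood at 2.58, 2.93 and 2.61 at oxygen 1, against -1.83, -1.83 and -1.14 at oxygen 20, a 19.8-fold rise. Edn1, which encodes the vasoconstrictor endothelin-1, rose 4.08-fold and Mif, a macrophage cytokine gene, 4.09-fold. Pdgfa and Pdgfb, platelet-derived growth factors, rose 2.06-fold and 2.11-fold.

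Clotting and matrix genes changed in the same samples. Of 15 genes of coagulation and plasminogen activation, 7 rose (46.7%) and 3 fell (20%), against 20.7% and 18.2% over all genes. F3, tissue factor, which starts clotting, rose 6.32-fold, and the plasminogen activator inhibitor gene Serpinb2 rose 16.9-fold (log2 fold changes of 1.2 and 2.19 after normexp), while Plau, the activator it blocks, fell 1.81-fold. Among matrix metalloproteinases and their inhibitors 8 of 18 rose (44.4%) and 3 fell (16.7%). Mmp13, a collagenase, stood at 1.77, 2.08 and 1.00 at oxygen 1, against -1.47, -1.55 and -1.78 at oxygen 20, a 9.29-fold rise, and the macrophage elastase gene Mmp12 rose 3.89-fold. The inhibitor gene Timp2 fell 1.82-fold.

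Arginine genes changed on both arms. Besides Arg1, Nos2, which encodes inducible nitric oxide synthase, stood at 3.68, 4.59 and 3.61 at oxygen 1, against -0.08, -0.30 and 0.04 at oxygen 20, a 16.9-fold rise (log2 4.08 ± 0.27 SE, adjusted p = 3.31e-08). Nos2 is a usual marker of classical activation and Arg1 of alternative activation, and both rose in the same 3 samples. Arg2, the mitochondrial arginase gene, rose 2.98-fold, while the cationic amino acid transporter gene Slc7a1 fell 1.72-fold and the spermidine synthase gene Srm 1.77-fold. Of 16 genes of arginine and polyamine metabolism tested, 5 rose and 4 fell, shares near the background of 20.7% and 18.2%.

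Inflammatory cytokines did not move as a block. Of 35 genes of cytokines and their receptors, 18 rose (51.4%) and 5 fell (14.3%), with a median log2 fold change of 0.45. The shares over all genes were 20.7% and 18.2%. Il1b, which encodes interleukin-1 beta, stood at 2.84, 3.50 and 2.19 at oxygen 1, against 0.00, -0.16 and -0.17 at oxygen 20, a 7.73-fold rise. The receptor gene Il1r1 rose 4.29-fold, and the receptor antagonist gene Il1rn 2.44-fold. Il6 rose 2.12-fold and Csf3, which encodes granulocyte colony-stimulating factor, 5.39-fold, although only 1 of 3 oxygen 20 samples of Csf3 was well above background and its log2 fold change after normexp was 0.95.

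Members of the tumour necrosis factor family went both ways. Tnf stood at 3.1, 2.93 and 2.88 at oxygen 1, against 4.19, 4.04 and 4.04 at oxygen 20, a 2.18-fold fall (log2 -1.12 ± 0.14 SE, adjusted p = 1.49e-05). Tnfsf9, the ligand of 4-1BB, rose 5.13-fold, Tnfsf13b, the B cell factor BAFF, 4.94-fold, and Tnfsf14, known as LIGHT, 4.24-fold. Among the transforming growth factor beta family, Gdf15, a stress-induced cytokine gene, stood at 2.51, 2.64 and 2.76 at oxygen 1, against 4.41, 4.72 and 4.60 at oxygen 20, a 3.83-fold fall. The M-CSF receptor gene Csf1r rose 2.08-fold.

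Of 12 chemokine receptor genes tested, 9 rose (75%) and none fell, with a median log2 fold change of 1.80. Over all genes 20.7% rose and 18.2% fell. The number of rises was 5 when probes had to be well above background in all 18 samples. Only 8 of the 12 were well above background in all 6 samples. Ccr3, a receptor known from eosinophils, stood at 0.86, 0.88 and 0.54 at oxygen 1, against -2.07, -2.11 and -2.26 at oxygen 20, a 7.49-fold rise. The fractalkine receptor gene Cx3cr1 rose 6.16-fold, and Cxcr4, which responds to CXCL12 and is a known HIF target, 3.88-fold.

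Among 21 chemokine genes, 9 rose (42.9%) and 6 fell (28.6%), against 20.7% and 18.2% over all genes. Ccl5, which attracts T cells and monocytes, stood at 4.88, 5.55 and 4.95 at oxygen 1, against 2.86, 2.89 and 3.04 at oxygen 20, a 4.58-fold rise. Cxcl3, a neutrophil attractant gene, rose 6.77-fold (log2 1.44 after normexp) and Pf4, a chemokine known from platelets, 3.90-fold. Ccl7, a monocyte attractant gene, fell 2.83-fold. Cxcl1, another neutrophil attractant gene, rose 2.65-fold, in contrast to Cxcl5.

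In the Toll-like receptor list 5 of 21 genes rose and 5 fell, shares of 23.8% each that are near those over all genes, 20.7% and 18.2%. Tlr2, which senses bacterial lipoproteins, stood at 2.51, 2.25 and 2.48 at oxygen 1, against 3.58, 3.68 and 3.87 at oxygen 20, a 2.46-fold fall, whereas its partner gene Tlr6 rose 1.77-fold. Tlr4, the sensor of endotoxin, differed by 0.10 on the log2 scale with overlapping groups (adjusted p = 0.632). Downstream, Traf6 and Ticam2 rose 2.85-fold and 2.83-fold, and the kinase gene Irak4 fell 2.0-fold. Fcgr2b, the inhibitory receptor for IgG, rose 4.99-fold and the activating receptor gene Fcgr3 3.21-fold. The lectin genes Clec10a and Clec4e rose 3.97-fold and 3.08-fold, in contrast to Cd209f.

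Of 14 genes of MHC class II presentation, 5 rose (35.7%) and 2 fell (14.3%), against 20.7% and 18.2% over all genes. The number of falls ranged between 0 and 3 over the alternatives. H2-Ab1, which encodes the beta chain of I-A, stood at 3.17, 3.54 and 2.47 at oxygen 1, against -0.77, -1.03 and -0.85 at oxygen 20, a 15.4-fold rise on its single probe, and Cd74, the invariant chain, rose 2.91-fold. H2-Aa, the alpha chain that pairs with H2-Ab1, was lower at oxygen 1. It was well above background in no sample there and in all 3 at oxygen 20, and was at least 1.46-fold lower at oxygen 1 (adjusted p = 0.0497). H2-Eb1 fell 1.76-fold (adjusted p = 0.0255). The H2-Aa fall was lost under 9 of 16 alternatives and the H2-Eb1 fall under 4 of 17, including the fits without the oxygen 1 sample of replicate 1 or the oxygen 20 sample of replicate 3. Both falls were also lost with the slide as a block (adjusted p = 0.107 for H2-Aa and 0.0757 for H2-Eb1), and on the slide with both groups the differences were -0.49 and -0.25 on the log2 scale. The H2-Aa fall was also lost without the oxygen 1 sample of replicate 2 (adjusted p = 0.0762). H2-Ab1 kept its call under all 17.

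Genes for the uptake of dying cells leaned downward in part. Of 23 engulfment genes, 5 rose (21.7%) and 8 fell (34.8%), against 20.7% and 18.2% over all genes. Megf10, 1 of the 5 rises, was well above background in no sample of either group. Mertk, a receptor for apoptotic cells, stood at -2.73, -2.44 and -1.94 at oxygen 1, against -0.52, -0.58 and -0.57 at oxygen 20, a 3.51-fold fall, and its bridging ligands Pros1 and Gas6 fell 3.62-fold and 1.64-fold. The annexin gene Anxa1 rose 1.68-fold. In prostaglandin synthesis Ptgs2, the inducible cyclooxygenase gene, stood at 1.26, 1.64 and 0.82 at oxygen 1, against -2.29, -1.73 and -1.94 at oxygen 20, a 9.39-fold rise. The prostaglandin E2 receptor genes Ptger2 and Ptger3 rose 2.23-fold and 2.49-fold, while Hpgds, the prostaglandin D2 synthase gene, fell 2.56-fold and the thromboxane synthase gene Tbxas1 1.84-fold. Of 20 genes in that list, 6 rose (30%) and 7 fell (35%).

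**Figure D3:**
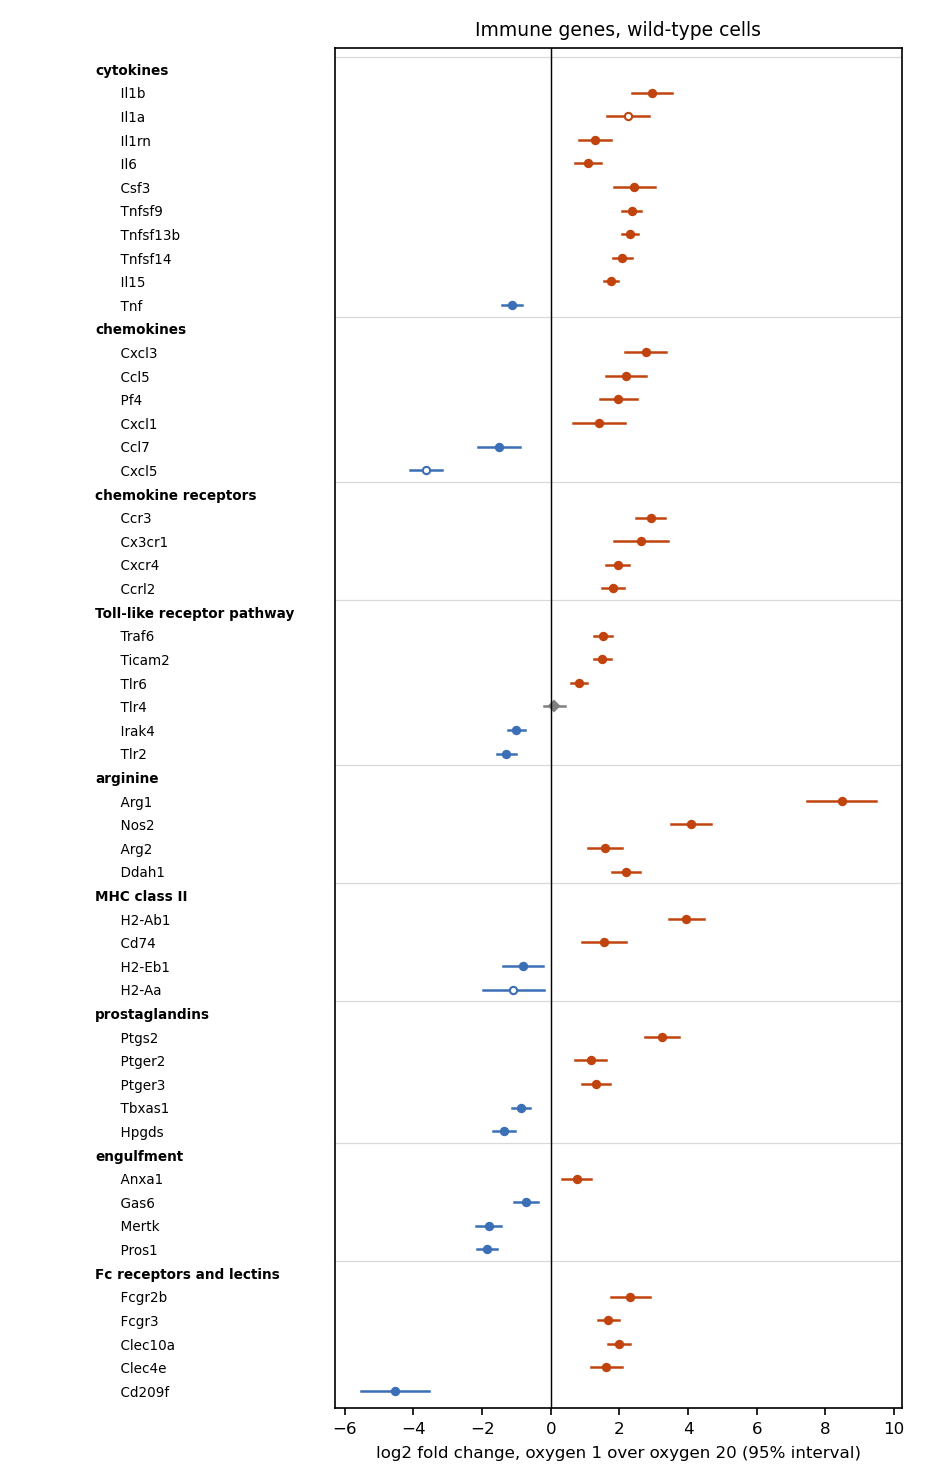
Log2 fold change of oxygen 1 over oxygen 20 (horizontal axis, lines are 95% intervals of the fit) for immune genes of wild-type cells, grouped by role. Open circles mark genes with no sample well above background in the lower group, and grey diamonds genes that did not pass the threshold. The chemokine receptors shown all lie right of 0, while Tnf, Tlr2, Mertk and Pros1 lie left of it beside the rises of Il1b, Nos2 and H2-Ab1.

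Proliferation genes fell in a block. Of 46 DNA replication genes tested, 38 fell and none rose, with a median log2 fold change of -1.22, and of 58 genes of mitosis and the kinetochore, 56 fell and none rose, with a median of -1.52. Among all genes 18.2% fell. Mcm5, a subunit of the replicative helicase, stood at -0.40, -0.67 and -0.69 at oxygen 1, against 2.02, 2.18 and 2.08 at oxygen 20, a 6.42-fold fall. Pola1, the DNA polymerase that starts synthesis, fell 4.93-fold, and Uhrf1, which maintains DNA methylation at replication and stood in another list, 4.94-fold. Pcna, the polymerase clamp, differed by -0.15 on the log2 scale with overlapping groups (adjusted p = 0.337).

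Mitotic genes followed. Plk1, a kinase of mitotic entry, stood at -0.84, -0.92 and -1.18 at oxygen 1, against 0.99, 1.21 and 1.23 at oxygen 20, a 4.35-fold fall. Ccnb1, cyclin B1, fell 4.94-fold, Spc24, a kinetochore subunit, 5.59-fold, and Mki67, the proliferation antigen Ki-67, 3.39-fold. Of 31 nucleotide synthesis genes, 22 fell (71%) and 2 rose (6.45%), against 18.2% and 20.7% over all genes. Rrm2, the regulatory subunit of ribonucleotide reductase, fell 5.65-fold, whereas Mthfd1l, an enzyme of mitochondrial folate metabolism, rose 4.74-fold.

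Genome upkeep fell with them. In the DNA repair list 43 of 56 genes fell and 5 rose, with a median log2 fold change of -0.80. Rad54l, which acts in homologous repair, fell 5.07-fold, Clspn, a checkpoint adaptor, 4.73-fold and Exo1, a nuclease, 4.69-fold. The rises included Msh6 and Atr, at 1.65-fold and 1.60-fold. Of 31 genes of histones and histone chaperones, 17 fell (54.8%) and 7 rose (22.6%), against 18.2% and 20.7% over all genes. Among linker histones H1f5 fell 6.09-fold, while H1f2 rose 2.17-fold and H1f3 was at least 2.40-fold higher at oxygen 1.

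Regulators of the cell cycle moved in both directions. Cdkn1b, which encodes the inhibitor p27, stood at 2.14, 2.37 and 2.49 at oxygen 1, against 0.82, 0.84 and 0.80 at oxygen 20, a 2.86-fold rise, and Cdkn1c, which encodes p57, rose 6.64-fold. Cdkn1a, which encodes p21, differed by -0.30 on the log2 scale on its brightest probe, with overlapping groups (adjusted p = 0.131). Its 2 probes gave log2 fold changes of -1.15 and -0.30. Ccng2, an unconventional cyclin, and Mxd1, an antagonist of MYC, rose 3.1-fold and 2.47-fold. E2f1, E2f2 and E2f8 fell between 1.79-fold and 2.87-fold, and Ccne1, cyclin E1, 2.29-fold. Ccnd1, cyclin D1, fell 3.13-fold with 1 of the 3 oxygen 20 values missing. Of 36 genes in that list, 7 rose (19.4%) and 12 fell (33.3%). The share of rises was thus near the 20.7% over all genes, while 18.2% of all genes fell.

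Genes of ribosome assembly fell. Of 55 ribosome biogenesis genes, 29 fell (52.7%, against 18.2% over all genes) and none rose, with a median log2 fold change of -0.32. Dkc1, the pseudouridine synthase of ribosomal RNA, fell 2.73-fold and Utp20, a processome subunit, 2.12-fold. Of 80 cytosolic ribosomal protein genes, 16 rose and 2 fell, but the number of rises ranged between 0 and 22 over the alternatives, so that no direction is given. Ddit4, which encodes the mTORC1 inhibitor REDD1, stood at 4.27, 4.47 and 4.39 at oxygen 1, against 1.51, 1.65 and 1.43 at oxygen 20, a 7.19-fold rise. The translation repressor gene Eif4ebp1 rose 2.48-fold, while Sesn1, a sestrin gene, fell 2.52-fold.

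Of 37 genes of the ATF4 response and tRNA synthetases, 16 fell (43.2%) and 8 rose (21.6%), against 18.2% and 20.7% over all genes. Phgdh, the first enzyme of serine synthesis, stood at 0.57, 0.07 and 0.63 at oxygen 1, against 2.41, 2.65 and 2.83 at oxygen 20, a 4.60-fold fall, with Psat1 and Shmt2 of the same route down 2.33-fold and 2.66-fold. Vldlr, a lipoprotein receptor gene in the same list, rose 5.0-fold with 1 of the 3 oxygen 1 values missing. Atf4 and Ddit3 differed by -0.33 and -0.06 on the log2 scale (adjusted p = 0.191 and 0.785).

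Lipid genes changed one by one. Of 25 genes of lipid droplets and fatty acid uptake, 5 rose and 6 fell, near the shares over all genes of 20.7% and 18.2%. Hilpda, which encodes an inhibitor of lipid droplet breakdown, stood at 4.50, 4.57 and 4.47 at oxygen 1, against 0.62, 0.75 and 0.71 at oxygen 20, a 14.1-fold rise. Dgat2, which makes triglyceride, rose 3.94-fold, while the droplet coat gene Plin2 did not differ measurably (log2 difference 0.00, adjusted p = 0.994). Of 27 genes of fatty acid synthesis and desaturation, 6 rose (22.2%) and 10 fell (37%). Scd2 rose 3.89-fold, whereas Elovl6, an elongase gene, Fads1, a desaturase gene, and Acaca, which starts fatty acid synthesis, fell 3.67-fold, 3.33-fold and 2.10-fold. Of 30 genes of cholesterol synthesis and uptake, 11 fell and 2 rose. Idi1, Cyp51, Dhcr7 and Fdps fell between 2.16-fold and 2.61-fold, and Insig2, which restrains the pathway, rose 2.35-fold.

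Transcription factors that act mostly as repressors rose. Of 29 genes of transcription repressors and HIF partners tested, 20 rose (69%) and 1 fell (3.45%), with a median log2 fold change of 0.82. The shares over all genes were 20.7% and 18.2%. Bhlhe40, a repressor of clock and metabolic genes, stood at -0.10, 0.17 and 0.19 at oxygen 1, against -4.04, -3.70 and -3.77 at oxygen 20, a 15.2-fold rise. Its relative Bhlhe41 rose 2.82-fold, Id1 and Id2, which block other helix-loop-helix factors, 3.90-fold and 2.33-fold, and Nfil3 3.52-fold. In the circadian clock list 10 of 19 rose (52.6%) and 1 fell (5.26%), with Rora at 3.68-fold and Arntl, which encodes BMAL1, at 1.84-fold.

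Immediate early genes showed both signs. Of 38 genes of the immediate early and NF-kB list, 17 rose (44.7%) and 9 fell (23.7%), against 20.7% and 18.2% over all genes. Ier3, a survival gene, stood at 3.94, 3.95 and 3.83 at oxygen 1, against 0.72, 0.94 and 0.84 at oxygen 20, an 8.41-fold rise. Egr1, Nr4a1 and Nr4a2 fell 3.96-fold, 2.98-fold and 2.45-fold, and Dusp1, a phosphatase that stops MAP kinases, rose 1.96-fold.

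Autophagy genes rose, while Tfeb fell. Of 36 genes of the autophagy machinery, 16 rose and 1 fell, with a median log2 fold change of 0.35. Atg13 and Atg9a, which act at initiation, rose 2.36-fold and 2.28-fold. Tfeb, which encodes a transcription factor of lysosome and autophagy genes, stood at -2.14, -2.14 and -2.07 at oxygen 1, against -1.23, -1.05 and -1.08 at oxygen 20, a 2.0-fold fall. In the lysosome list 6 of 50 rose (12%) and 10 fell (20%), against 20.7% and 18.2% over all genes. Its called members included Ctsk, a collagen-degrading cathepsin, 7.25-fold higher and the lipase gene Lipa 2.61-fold lower.

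Cell death genes changed in both directions. Of 34 pro-apoptotic genes 11 rose (32.4%) and 9 fell (26.5%), and of 25 anti-apoptotic genes 9 rose (36%) and 5 fell (20%). Over all genes 20.7% rose and 18.2% fell. Bmf and Casp6 rose 3.23-fold and 2.93-fold, while Bbc3, which encodes PUMA, and Pmaip1, which encodes NOXA, fell 1.44-fold and 1.55-fold. Bcl2, the founding survival gene, fell 1.94-fold. In the unfolded protein response list 10 of 28 rose and 2 fell, with Ero1a, the oxidase that makes disulfide bonds in the endoplasmic reticulum, 24.2-fold higher, and the chaperone gene Hspa5 1.45-fold higher.

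**Figure D4:**
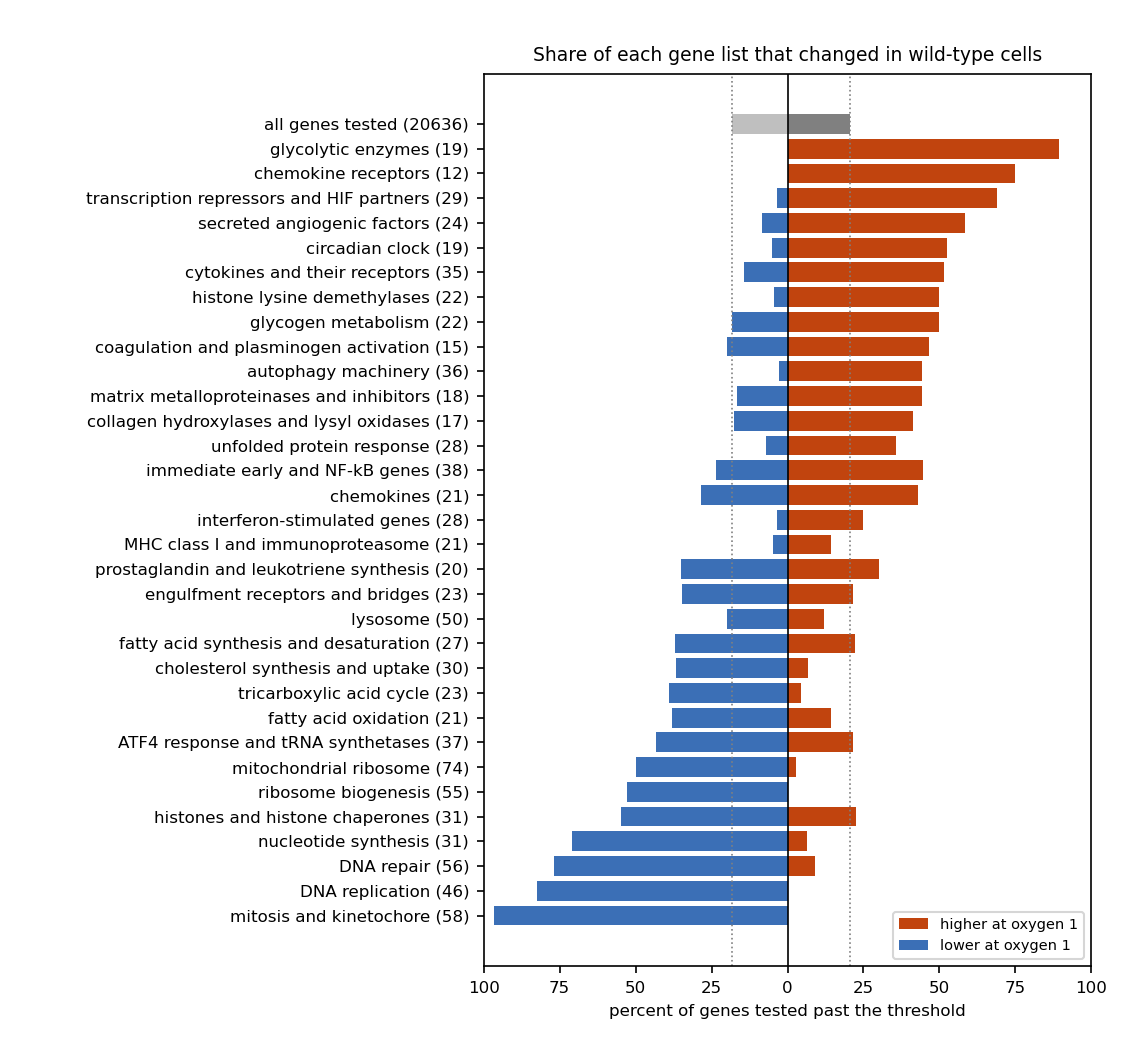
Percent of the genes tested in each list that passed the threshold in wild-type cells, with bars right of 0 for genes higher at oxygen 1 and left of 0 for genes lower at oxygen 1, and the number tested in brackets. The grey bars and dotted lines give the same shares over all 20636 genes, 20.7% higher and 18.2% lower. Glycolytic enzymes and chemokine receptors reach furthest to the right, and mitosis, DNA replication and DNA repair furthest to the left.

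Markers of other cell types changed beside these groups, and their part in the results was not tested. Of 8 lymphocyte markers measured, 3 fell and none rose. The B cell gene Ms4a1 was well above background in no sample at oxygen 1 and in all 3 at oxygen 20, and was at least 2.97-fold lower at oxygen 1. Of 11 neutrophil markers 5 fell (45.5%) and 2 rose (18.2%), against 18.2% and 20.7% over all genes. The summed linear level of neutrophil markers was 25.1 to 35 at oxygen 1 and 30 to 33.5 at oxygen 20. The granule genes Ngp and Ltf fell 13.7-fold and 6.08-fold, and without the oxygen 1 sample of replicate 2 the log2 fold change of Ngp was -2.83, against -3.78 with it. Their levels at oxygen 1 were low, at -5.31, -8.20 and -5.38 for Ngp.

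The 6 markers of mast cells, basophils and eosinophils summed to 2.63 to 4.6 at oxygen 1 and 0.9 to 0.927 at oxygen 20, where 2 rose and 2 fell. The rises were Ccr3 and Siglecf, a sialic acid receptor also known from alveolar macrophages, at 3.48-fold. The erythroid and megakaryocyte markers summed to 16.1 to 33.5 at oxygen 1 and 6.07 to 6.68 at oxygen 20, with Pf4 as the only rise. Dendritic cell markers summed to 78.7 to 93.1 at oxygen 1 and 53.9 to 88.3 at oxygen 20. Markers of stromal and endothelial cells summed to 9.28 to 13.2 at oxygen 1 and 10.1 to 13.8 at oxygen 20.

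The same change of oxygen was measured in PHD3-/- cells, on other samples. Egln3 itself, the gene of PHD3, averaged 2.85 at oxygen 1 and -3.95 at oxygen 20 in these knockout cells. Its rise was called there too (log2 6.79), so the probe used does not show a loss of this transcript. Of the 8039 genes called in wild-type cells, 6858 (85.3%) were also called in knockout cells in the same direction, none in the opposite direction, and these are 82.9% of the 8270 knockout calls. The difference between the wild-type and the knockout response, tested gene by gene in limma, was past the threshold for 0 of 20636 genes. An unadjusted p under 0.05 was found for 219 (1.06%), fewer than an exact test would give if no gene differed. Same-numbered samples of both genotypes at oxygen 1 shared a slide, which the fit did not use. The 0 calls therefore do not show that the responses are equal. For 16288 genes (78.9%) the 95% interval of the difference lay within 1 log2 unit. Across genes, which are not independent replicates, the responses had a Pearson r of 0.931.

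Epo, which encodes erythropoietin, was chosen for this comparison after its values were seen. It stood at -4.48, -5.03 and -4.02 in wild-type cells at oxygen 1, against -7.37, -8.38 and -7.29 at oxygen 20, where no sample was well above background, and was at least 3.85-fold higher at oxygen 1 (adjusted p = 9.82e-05). In knockout cells 1 of 3 samples was well above background at oxygen 1 and none at oxygen 20, so the size of the difference between the responses cannot be given. That difference did not pass the threshold over all genes.

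**Figure D5:**
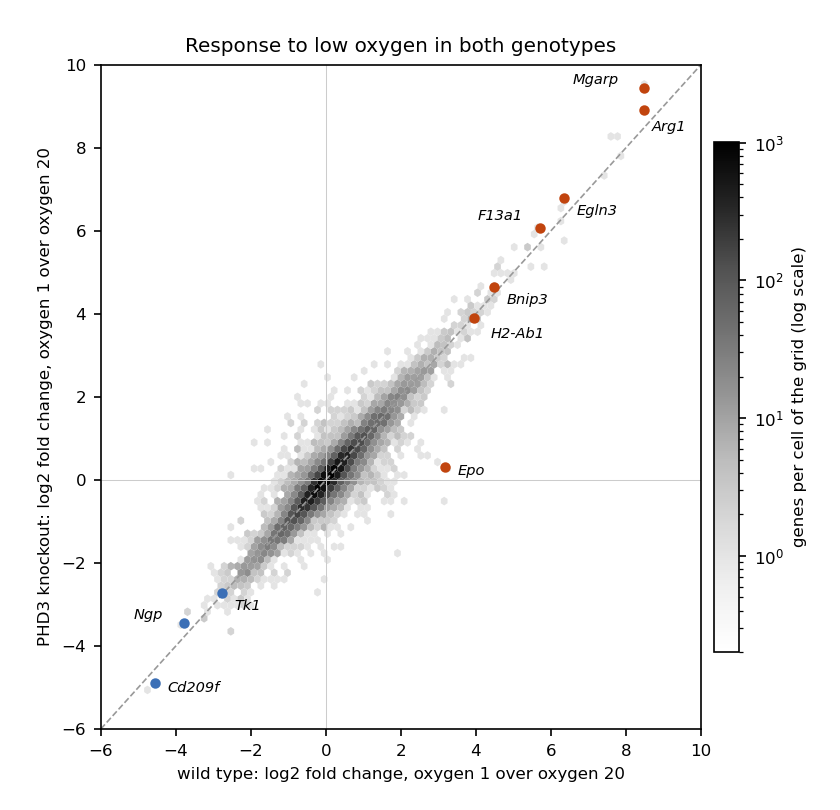
Log2 fold change of oxygen 1 over oxygen 20 in wild-type cells (horizontal axis) and in PHD3 knockout cells (vertical axis) for 20636 genes, with darker cells of the grid holding more genes and 10 genes named. The dashed line marks equal responses. Points follow the line (Pearson r 0.931 across genes), and Epo, with 1 of 9 samples well above background outside wild-type cells at oxygen 1, lies below it.

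The cells at low oxygen also differed from starved cells. Between wild-type cells at oxygen 1 and wild-type cells labelled starved, 7951 genes differed (38.5% of those tested), 4138 higher (20.1%) and 3813 lower (18.5%) at oxygen 1. The responses of both conditions against oxygen 20 share their control samples, so that only this direct contrast is used.

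Of the 8 largest fitted gaps upward, 3 were measured in every sample of both groups. Mgarp, Gipr, which encodes the receptor of an incretin hormone, and Rcor2 stood 8.87, 7.92 and 6.01 log2 units above starved cells. Arg1 and Smtnl2 were well above background in 1 of 3 starved samples, so no exact gap is given for them. Ppp1r3g, Apln, which encodes the peptide apelin, and Ppp1r3c were well above background in no starved sample and were at least 51.1-fold, 19.5-fold and 13-fold higher at oxygen 1.

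Of the 8 largest fitted gaps downward, 2 were measured in every sample of both groups. Psrc1, which encodes a spindle protein, and Ccl7 stood at log2 differences of -3.53 and -3.36 from starved cells. The others were well above background in no sample at oxygen 1 and in all 3 starved samples. Among them Scd1, a fatty acid desaturase gene, was at least 13.6-fold lower at oxygen 1, Cxcl5 at least 9.29-fold and Omg at least 8.53-fold. The bounds for Megf10, Map1a and Kcnj10 were at least 4.04-fold, 3.89-fold and 3.31-fold.

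Cholesterol genes differed between the conditions. Of the 30 cholesterol genes, 26 were lower at oxygen 1 than in starved cells and 1 was higher, with a median log2 difference of -1.57. Over all genes 18.5% were lower and 20.1% higher in this contrast. Fdps averaged 0.52 at oxygen 1 and 3.38 in starved cells, and Idi1 averaged -0.72 at oxygen 1 and 2.14 in starved cells. In control cells at oxygen 20 Fdps averaged 1.63 and Idi1 0.66, between the levels of these conditions. Of 46 replication genes 32 were lower at oxygen 1 than in starved cells, with a median of -0.78, and of 19 glycolytic enzymes 14 were higher and 1 lower, with a median of 1.21. Chemokine receptors had 5 of 12 higher and none lower, with a median of 0.55.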

How the data were processed

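RNA was measured on 1-colour Agilent arrays, 18 samples on 20 arrays. The files used hold each spot's intensity as deposited by the scanner software, Agilent Feature Extraction 10.7.3.1 per the file headers, with background already subtracted. The authors' deposited table of log2 values, whose sorted columns are nearly identical between samples, was used as an alternative. So was a normexp correction of the spots' median intensity, with an offset of 50, followed by quantile normalization. The submitters' processing notes name limma, without a version.

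The processed intensity was put on the log2 scale and the array's 75th percentile subtracted. Control spots and outlier spots were left out, spots of a probe and arrays of a sample were averaged, and a probe was kept if 3 or more of the 18 samples had it well above background. The brightest probe stood for a gene. Symbols came from the RefSeq table of GRCm38.p6, and 26055 of 39429 probes had one. Probes without a symbol were grouped by the array's own sequence identifier, and each identifier counted as a gene. The shares over all genes include these.

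A model of 6 group means over 18 samples was fitted in limma 3.58.1 (R 4.3.3) with Benjamini-Hochberg adjustment over 20636 genes, and a gene counted as changed at an adjusted p under 0.05. The fitting steps were tested on simulated data. Each group needed at least 2 values per gene. The number of arrays limits the precision, and nothing in the labels says whether samples of different conditions came from the same mouse, so p-values measure the spread between these samples.

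The genes named were taken from the 25 largest rises and 25 largest falls with separate groups, the 4 members of each list with the smallest adjusted p in each direction and further members by role, and the 8 largest gaps each way against starved cells. A few genes these rules name are not reported here. The comparison, the gene lists and their members were chosen with earlier results of these data known. Same-numbered samples of the groups had correlations of their deviations of 0.217, -0.088 and 0.307, so that the numbers were not taken as pairs.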

Additional observations from a re-analysis of the deposited data

How the results depend on the processing

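With 8039 genes called at oxygen 1 against oxygen 20, the number was 8279 after quantile normalization, 7381 after normexp background correction, 7949 on the authors' deposited values, 7198 without a filter on dim probes, 7248 with the slide as a block and 6783 when only the 6 samples compared were fitted. The replicate block, added to the fit although the numbers did not pair the samples, gave 8230 calls, of which 7847 were among the 8039. Leaving out 1 sample gave 6634 to 7553 calls. Rises made up 46.0% to 55.0% of the calls over these settings, 53.2% in the values reported. Without a filter on dim probes the median log2 fold change of all genes was 0.206, against 0.034. The difference between the wild-type and knockout responses was called for 0 genes under each alternative run. The contrast with starved cells gave 6277 to 8344 calls when 1 sample was left out, against 7951.

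Counts in some lists moved by more than 1.5 times. Rises among cytosolic ribosomal proteins ranged between 0 and 22, among chemokine receptors between 5 and 10, among chemokines between 5 and 10, among genes of coagulation between 4 and 9 and among immediate early genes between 11 and 17. Falls among mitochondrial ribosome genes ranged between 23 and 41 and among lysosome genes between 6 and 15. Of 228 called genes named in the text or plotted, 222 kept their direction and call under each alternative run; besides genes for which the report says so, Scd1 lost its call after normexp (adjusted p = 0.319) and Megf10 under 7 alternatives (adjusted p up to 0.579), among them each fit without replicate 1 or 2 of either group. After normexp 44 of the 228 had a fold smaller by over 1.5 times, among them F13a1 (log2 3.91), Plod2 (3.33), Ndufa4l2 (0.76) and Clspn (-1.26). The median over probes moved 3, Ak4, Gapdh and Ldha, the slide block 2, Ngp and Ltf, and leaving out the oxygen 1 sample of replicate 2 moved 2, Ngp and Cd209f. The cause was not tested. On the only slide with both groups, the difference between its 2 samples, with no test, had the reported sign for 228 of the 228 genes, at 7.45 for Mgarp and 5.97 for Egln3 on the log2 scale.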
